A study of Mus musculus with 6 samples.

Results

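The 9 genes Dcx, Tubb3, Sox11, Sox4, Neurod1, Eomes, Tbr1, Cd24a and Igfbpl1 are used as marks of young neurons and of excitatory neurons of the forebrain, among them the mitral cells of the olfactory bulb. They were taken by name, with every probe that the scanner files assign to one of them. This gave 17 of the 55681 probes and 9 of the 35010 genes on the array. Dcx and Sox4 have 3 probes each, Sox11, Neurod1, Eomes and Tbr1 have 2 each, and Tubb3, Cd24a and Igfbpl1 have 1 each.

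RNA was measured on 6 Agilent 1-colour microarrays from male mice of the inbred strain BALB/c, 8 weeks old, with tissue taken 24 h after a single intranasal instillation. The groups were PAMAM, a branched polyamidoamine polymer (dendrimer) studied as a drug carrier, given at 0.15 mg/kg, and saline, each in 3 regions (olfactory bulb, hippocampus and cortex). Every group has 1 array, which carried RNA pooled from 6 independent experiments, so a difference between arrays cannot be set against biological spread, and p-values are not reported. Whether one mouse contributed to all 3 regions is not stated in the labels.

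A level below is the log2 of a probe's background-corrected signal minus the 75th percentile of its array, so that 0 is that percentile and 1 unit is a factor of 2. Levels were set against each other only on the same probe. A gene is represented by its brightest probe unless another is named, and a difference was called at 2-fold or more (a log2 difference of at least 1) where both arrays were well above background. Spot noise is the SD that repeated spots of similar brightness give to a difference of 2 arrays, and it covers neither animals nor labelling. Between 34134 and 39057 of 59305 non-control spots were well above background on an array, 0 were saturated, and the median SD between spots of one probe was 0.0798 to 0.0947.

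The tissue labels were set against cell markers. Markers of bulb interneurons summed to 307 and 314 times the 75th percentile on the bulb arrays (PAMAM and saline), against 63.8 and 65.1 for hippocampus and 72.5 and 74.3 for cortex. Prox1, a dentate granule cell factor, was higher in the hippocampus than in the cortex by 2.71 (PAMAM) and 2.93 (saline). The list of dentate granule cell genes separated the regions less. It summed to 38.7 and 40.9 on the hippocampus arrays (PAMAM and saline), against 33.0 and 28.0 for cortex and 30.7 and 34.1 for bulb. Of the measured genes, 6 of 9 (PAMAM) and 6 of 8 (saline) were higher in hippocampus than in cortex, with medians of 0.67 and 0.79. Striatal markers summed to 158 and 150 on the cortex arrays (PAMAM and saline), against 41.3 and 41.4 in the bulb and 20.0 and 19 in the hippocampus.

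New neurons are made in the adult mouse brain chiefly in the wall of the lateral ventricles and in the dentate gyrus of the hippocampus. Those born at the ventricles migrate along the rostral migratory stream into the olfactory bulb and become inhibitory granule and periglomerular interneurons, expressing doublecortin on the way. Excitatory neurons of the forebrain follow another lineage, in which the T-box factors Eomes and Tbr1 and the basic helix-loop-helix factor Neurod1 act in sequence, and mitral and tufted cells, the output neurons of the bulb, keep Eomes and Tbr1 in the adult. In samples of whole tissue, fewer cells of a type and less RNA per cell cannot be told apart.

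Of the probes, 3 are shown because they lie, by general knowledge of these genes and not by an annotation of the files, in the coding part (mm9 coordinates from the scanner files). Sox4 and Tbr1 are otherwise represented by brighter probes, and the values of the probes shown are given beside them. The Sox4 probe, chr13:29044482-29044541 on the minus strand, falls in the stretch that encodes the DNA-binding HMG box. The Tbr1 probe, chr2:61644054-61644113 on the plus strand, falls in the stretch for the T-box. The Neurod1 probe, chr2:79294309-79294368 on the minus strand, is the brighter of that gene's probes.
Sox4 probe 3: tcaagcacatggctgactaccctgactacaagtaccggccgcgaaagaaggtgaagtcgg
Tbr1 probe 2: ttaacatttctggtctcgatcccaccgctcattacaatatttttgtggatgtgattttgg
Neurod1 probe 1: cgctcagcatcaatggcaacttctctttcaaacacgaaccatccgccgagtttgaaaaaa

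The bases before the transcription start are shown for 4 genes that differed between regions, 3 of them higher in the bulb (Dcx, Sox4 and Eomes) and 1 lower there (Tbr1). Each run is the 250 bases upstream of the start in RefSeq's annotation of GRCm38.p6, read in the direction of the gene. They are chrX:143933125-143933374 (minus strand, the downstream one of 2 listed Dcx starts), chr13:28953700-28953949 (minus strand, Sox4), chr9:118477939-118478188 (plus strand, Eomes) and chr2:61804203-61804452 (plus strand, Tbr1). Capitals mark an E-box (CANNTG, the site of basic helix-loop-helix factors such as Neurod1) or a Sox site (AACAAAG), and a T-box half-site (GGTGTGA) was looked for as well, on both strands.
Dcx upstream: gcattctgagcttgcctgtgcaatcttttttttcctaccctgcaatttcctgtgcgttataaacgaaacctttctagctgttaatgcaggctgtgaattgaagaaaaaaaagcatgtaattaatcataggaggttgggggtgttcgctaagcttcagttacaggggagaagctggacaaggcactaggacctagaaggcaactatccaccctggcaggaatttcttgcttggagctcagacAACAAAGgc
Sox4 upstream: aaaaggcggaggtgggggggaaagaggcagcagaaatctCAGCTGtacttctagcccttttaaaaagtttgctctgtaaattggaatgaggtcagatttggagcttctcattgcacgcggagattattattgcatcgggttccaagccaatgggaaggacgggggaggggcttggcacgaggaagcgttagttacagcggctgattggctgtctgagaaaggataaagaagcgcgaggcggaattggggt
Eomes upstream: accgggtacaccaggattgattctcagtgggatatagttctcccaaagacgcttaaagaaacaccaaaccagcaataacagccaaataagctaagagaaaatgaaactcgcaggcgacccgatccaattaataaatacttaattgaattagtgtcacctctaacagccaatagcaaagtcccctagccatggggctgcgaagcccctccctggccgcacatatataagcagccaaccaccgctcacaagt
Tbr1 upstream: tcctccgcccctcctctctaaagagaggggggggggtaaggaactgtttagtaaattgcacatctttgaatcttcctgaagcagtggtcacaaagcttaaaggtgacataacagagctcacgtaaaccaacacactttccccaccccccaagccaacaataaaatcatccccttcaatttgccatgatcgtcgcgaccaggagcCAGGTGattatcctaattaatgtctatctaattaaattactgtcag

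Of the 9 genes, 7 have an entry in the promoter table, Cd24a and Igfbpl1 being without one. The Sox site begins 9 bases before the listed Dcx start (position -9), and 5.03% of the 32851 mouse promoters in the table hold that motif in a window of this length. An E-box lies at -211 in Sox4, at -46 in Tbr1, at -242 in Neurod1 and at -210 and -32 in Sox11, and 66.2% of promoters hold at least 1. The windows of Eomes and Tubb3 hold none of the 3 motifs, and no T-box half-site, which 3.33% of promoters hold, was found in any of these windows. The Tubb3, Neurod1 and Sox11 windows hold 21, 22 and 17 CpG dinucleotides, above the median of 6 over all promoters, whereas those of Tbr1 and the Dcx start shown hold 5 and 3. These matches describe letters and were not tested for binding.

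The olfactory bulb had the highest levels of Dcx, Sox4, Sox11, Eomes, Cd24a and Igfbpl1 under PAMAM and under saline, and the lowest levels of Tbr1 and Neurod1. In PAMAM arrays 5 of the 9 genes were at least 2-fold higher in bulb than in hippocampus, where 4.85% of the 22219 genes measured on both arrays were, and 2 were at least 2-fold lower (6.89%). In saline arrays the same 5 and 2 genes passed (5.60% and 5.77% of 22633 genes). The higher genes were Dcx, Sox4, Eomes, Cd24a and Igfbpl1, and the lower ones Tbr1 and Neurod1.

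Against cortex, 4 genes were at least 2-fold higher in the PAMAM bulb and 1 lower, of the 8 measured on both arrays (4.76% and 7.22% of 21917 genes, with 39.8% of the calls higher and 26.4% after scaling to the array median). In saline bulb the counts were 5 higher and 1 lower of 8 (4.96% and 6.54% of 21739 genes), the fifth being Sox11. The ninth gene, Eomes, was well above background in bulb and not in cortex. Between hippocampus and cortex 0 of 8 genes were at least 2-fold higher and 1, Tbr1, was lower, under PAMAM as under saline. Among all measured genes 1.97% were higher and 1.64% lower under PAMAM (3.61% of 21602 in either direction, with 54.6% of them higher and 38.2% after scaling to the array median), and 1.98% and 2.56% under saline (4.55% of 21975).

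**Figure D1:**
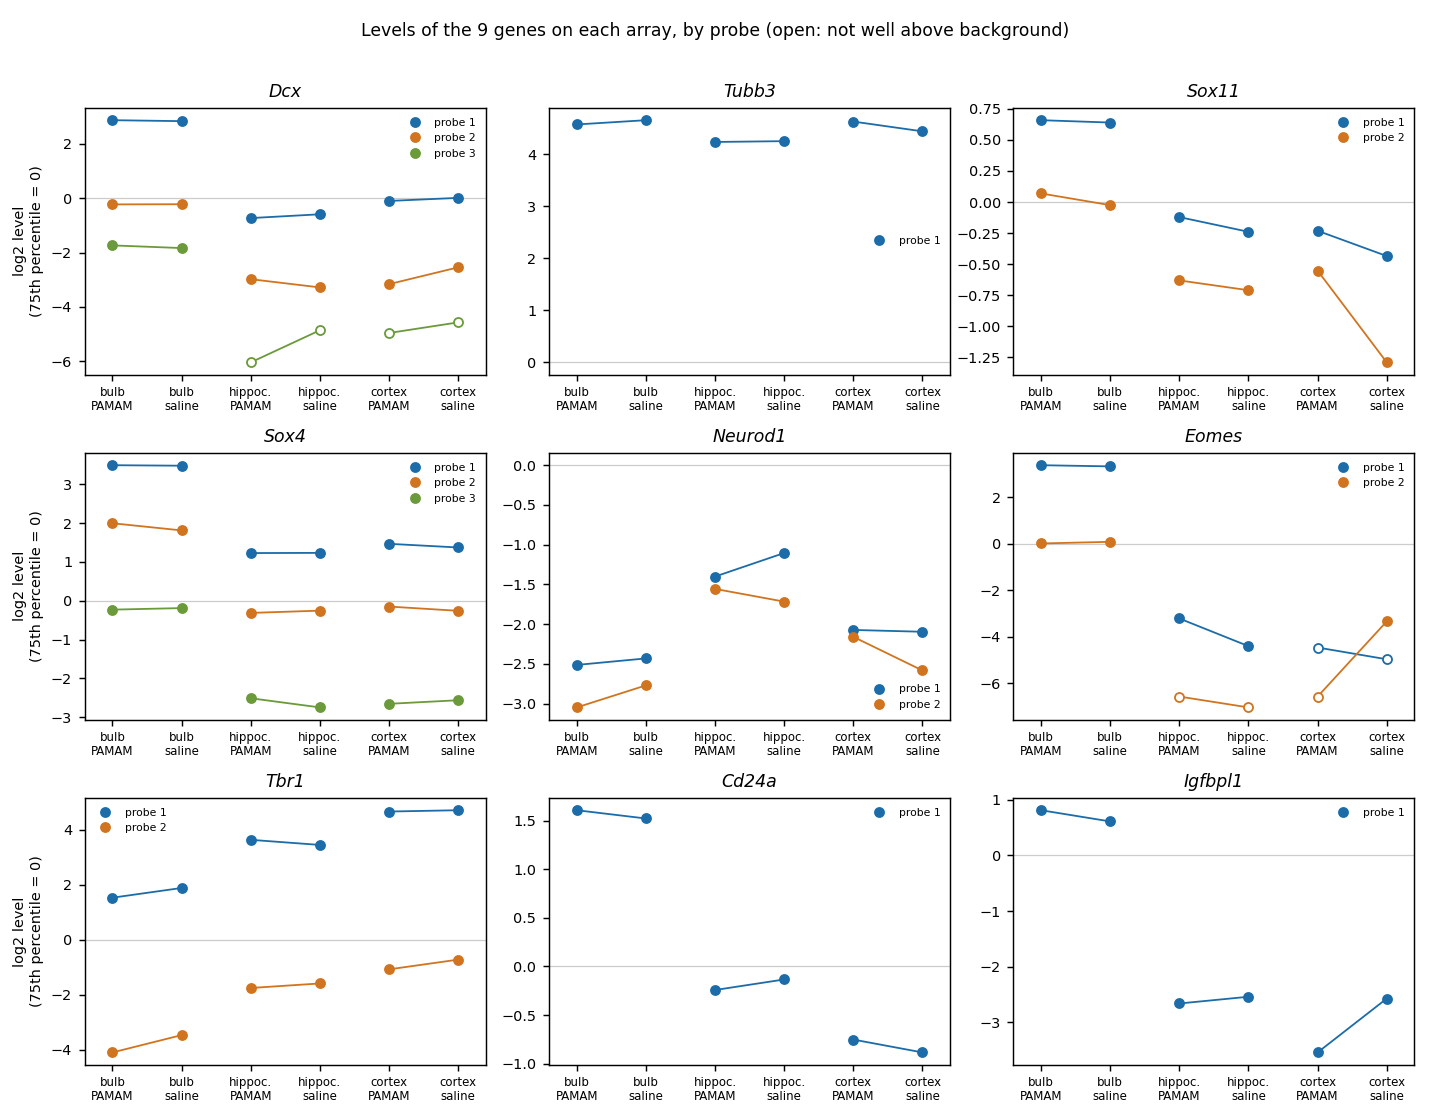
Level of each probe of the 9 genes on each of the 6 arrays, as log2 of the signal over the array's 75th percentile, one panel per gene, with PAMAM left of saline in each region and lines joining the 2 treatments of a region. In 6 panels the brightest probe is highest in the bulb, in Neurod1 and Tbr1 it is lowest there, and open circles are values not well above background.

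Doublecortin, the microtubule-associated protein of migrating neuroblasts, had levels of 2.86 (PAMAM) and 2.83 (saline) in the bulb, -0.73 and -0.60 in hippocampus and -0.10 and 0.01 in cortex. Both bulb arrays were far above the other 4, and the hippocampus arrays were the lowest. The bulb exceeded the hippocampus by 3.60 (PAMAM, spot noise 0.09) and 3.42 (saline, 0.09), and the cortex by 2.97 and 2.82. Only 0.473% and 0.517% of measured genes differed by as much between bulb and hippocampus.

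The other Dcx probes (mm9, chrX:140296337-140296396 and chrX:140295893-140295952, against chrX:140290854-140290913 for the brightest) had the same order of bulb over the rest. Probe 2 was higher in bulb than in hippocampus by 2.75 and 3.06. Probe 3 was well above background in the bulb alone, at least 7.07-fold (PAMAM) and 8.11-fold (saline) over the hippocampus and 6.96-fold and 6.14-fold over the cortex. Such a bound sets the bulb signal against whichever is higher on the other array, the probe's own signal or the lowest one well above background. Hippocampus and cortex were ordered differently by the probes: hippocampus minus cortex was -0.63 on probe 1 and 0.18 on probe 2 in PAMAM arrays, and -0.60 and -0.74 in saline arrays.

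Tubb3 encodes the neuronal class III beta-tubulin, which young and mature neurons both carry. Its levels were 4.58 and 4.66 in the bulb, 4.24 and 4.25 in hippocampus and 4.63 and 4.44 in cortex, in each pair PAMAM first. The 6 arrays lay within a narrow band, and no region difference reached 2-fold. The bulb was above the hippocampus by 0.34 (PAMAM) and 0.40 (saline, spot noise 0.06 each). Between bulb and cortex the difference was -0.06 (PAMAM) and 0.21 (saline), and the PAMAM value became positive with another background correction (0.01) and with quantile normalization (0.31).

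Sox11 and Sox4 are the SoxC transcription factors of differentiating neurons, which act on genes such as Tubb3 and Dcx. Sox4 levels were 3.49 (PAMAM) and 3.48 (saline) in the bulb, 1.23 and 1.23 in hippocampus and 1.47 and 1.37 in cortex. The bulb arrays stood apart, and hippocampus and cortex lay close together. The bulb exceeded the hippocampus by 2.26 and 2.24 (4.80-fold and 4.74-fold, spot noise 0.07) and the cortex by 2.03 and 2.11.

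All 3 Sox4 probes gave this difference, with values of 2.07 to 2.56 against the hippocampus and 2.03 to 2.43 against the cortex over both treatments. The coding probe printed above (probe 3) gave 2.28 (PAMAM) and 2.56 (saline) against the hippocampus. It was well above background on all 6 arrays.

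Sox11 had levels of 0.66 and 0.64 in the bulb, -0.12 and -0.24 in hippocampus and -0.23 and -0.44 in cortex (PAMAM first). The bulb was again highest, with a much smaller step than Sox4. It exceeded the hippocampus by 0.78 (PAMAM, spot noise 0.09) and 0.88 (saline, 0.09), and the cortex by 0.89 and 1.08. The saline bulb value against cortex fell just under 2-fold with another background correction (0.99) or with scaling to the array median (0.998). Probe 2 gave 0.70 and 0.69 against the hippocampus and 0.62 and 1.27 against the cortex.

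Neurod1 is a basic helix-loop-helix factor of the excitatory lineage and of maturing dentate granule cells. Its levels were -2.51 (PAMAM) and -2.43 (saline) in the bulb, -1.40 and -1.10 in hippocampus and -2.07 and -2.10 in cortex. The hippocampus was highest on both probes and the bulb lowest. The log2 difference of bulb minus hippocampus was -1.11 (PAMAM, spot noise 0.15) and -1.33 (saline, 0.15), and that of bulb minus cortex was -0.44 and -0.34. The background correction mattered for this dim gene: under the alternative correction the bulb differed from the hippocampus by -0.81 and -0.99, under 2-fold. That correction adds an offset of 50 to the signal, which narrows the differences of dim probes. Probe 2 gave -1.49 and -1.05.

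Eomes, a T-box factor of intermediate progenitors that is kept in mitral and tufted cells, had the largest region difference of the 9 genes. Its levels were 3.39 (PAMAM) and 3.34 (saline) in the bulb and -3.21 and -4.40 in the hippocampus. On the cortex arrays the probe was not well above background (-4.46 and -4.97). In background-corrected signal before scaling by array, the bulb arrays read 7436 and 6869, those of the hippocampus 59 and 30.3, and those of the cortex 20.5 and 17.3.

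After scaling by array the bulb was 97.1-fold (PAMAM, a log2 difference of 6.60) and 214-fold (saline, 7.74) over the hippocampus. Over the cortex it was at least 231-fold and 222-fold. A share of 0.0270% (PAMAM) and 0.0177% (saline) of measured genes differed by as much between bulb and hippocampus. With the other background correction the bulb was over the hippocampus by 5.58 and 6.10. Probe 2 (mm9, chr9:118395189-118395248) was at 0.02 and 0.09 in the bulb, not above background in the hippocampus, and at least 23.9-fold and 35.3-fold higher in the bulb. On the cortex arrays that probe was not above background under PAMAM (-6.58), and was above it under saline (-3.34), where the bulb exceeded it by 3.43.

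Tbr1, the T-box factor that follows Eomes in the excitatory lineage and marks deep-layer cortical neurons, had the opposite order. Its levels were 1.53 (PAMAM) and 1.88 (saline) in the bulb, 3.63 and 3.44 in hippocampus and 4.66 and 4.71 in cortex. The regions did not overlap, with cortex highest and bulb lowest under both treatments. The log2 difference of bulb minus hippocampus was -2.10 (PAMAM) and -1.56 (saline, spot noise 0.07 each), and that of bulb minus cortex was -3.13 and -2.83. Hippocampus minus cortex gave -1.03 and -1.26, and the PAMAM value was -0.99 with another background correction, -0.89 with quantile normalization and -0.85 as the median of both probes, all under 2-fold. Probe 2, the T-box probe printed above, gave -2.34 and -1.88 for bulb against hippocampus and -3.02 and -2.74 for bulb against cortex.

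Cd24a encodes a glycosyl-phosphatidylinositol-anchored surface glycoprotein of migrating neuroblasts, which ependymal cells and blood cells carry too. Its levels were 1.61 and 1.52 in the bulb, -0.24 and -0.13 in hippocampus and -0.75 and -0.88 in cortex (PAMAM first). Its order was bulb, hippocampus, cortex under both treatments. The bulb exceeded the hippocampus by 1.85 (PAMAM, spot noise 0.09) and 1.66 (saline, 0.09), and the cortex by 2.36 and 2.41. Ependymal markers ran the other way between bulb and hippocampus. Of 10 measured, 0 (PAMAM) and 1 (saline) were higher in the bulb, with medians of -1.09 and -0.90. Between bulb and cortex 5 of 10 were higher in the bulb under both treatments (medians -0.05 and -0.07, positive with the median over all probes). Between hippocampus and cortex 11 of 11 were higher in the hippocampus (medians 1.37 and 1.11), as Cd24a was (0.51 and 0.75). Red blood cell genes were higher in the bulb than in the hippocampus in 3 of 6 under PAMAM (median 0.03) and 5 of 6 under saline (0.48), and than in the cortex in 3 of 6 (-0.05, and 0.05 with quantile normalization) and 4 of 5 (0.46). The part of these cells in the Cd24a values was not tested.

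Igfbpl1, a secreted protein related to the insulin-like growth factor binding proteins and found in young neurons, had levels of 0.81 (PAMAM) and 0.61 (saline) in the bulb. The hippocampus was at -2.66 and -2.54 and the cortex at -3.54 and -2.57. The bulb exceeded the hippocampus by 3.48 and 3.15 and the cortex by 4.36 and 3.19. With the other background correction the bulb and cortex differed by 3.12 (PAMAM) and 2.52 (saline). The PAMAM cortex array was the lowest of the 6.

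**Figure D2:**
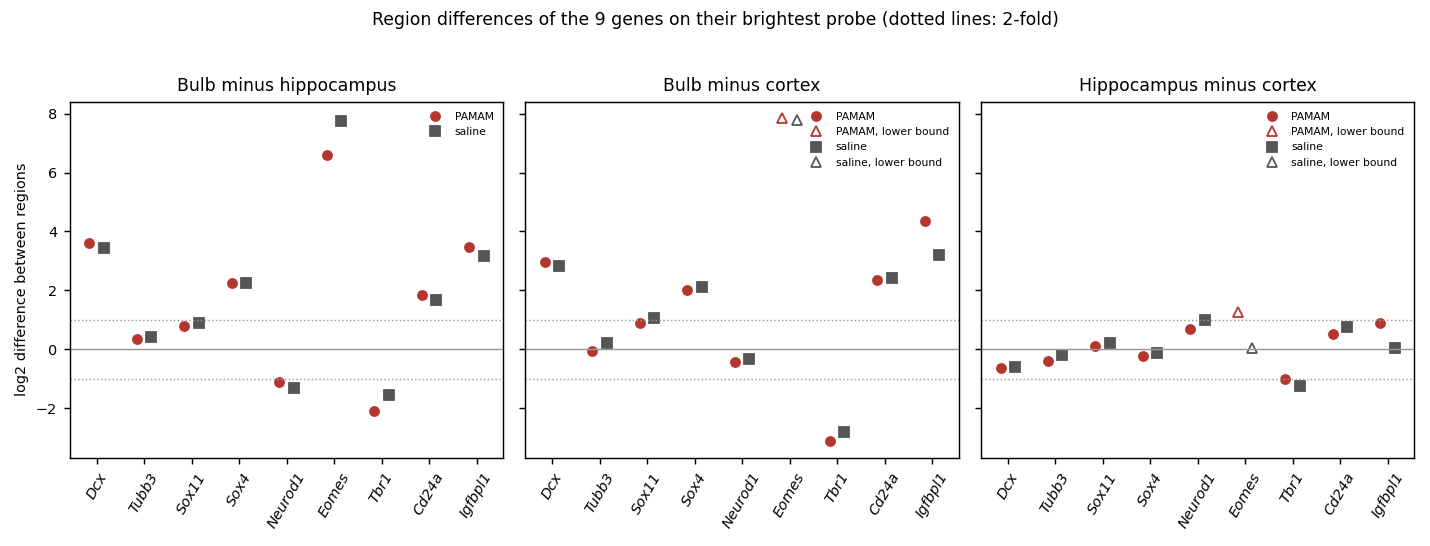
Log2 differences between regions for the 9 genes on their brightest probe, PAMAM arrays (red circles) left of saline arrays (grey squares); open triangles are lower bounds where the second array was not well above background. Eomes, Dcx and Igfbpl1 lie highest above 0 in both bulb comparisons, Tbr1 lies below 0 in every panel, and the points of the 2 treatments lie close together for most genes.

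The profile over the 6 arrays of Dcx was closest to that of Tshz1, a zinc finger factor of bulb interneurons, with a root mean square distance of 0.0974 log2 units after centring among 21094 genes. Of the other members, Sox4 (0.526) and Igfbpl1 (0.530) were ranks 97 and 100 for Dcx. Eomes was closest to S100a5 (0.553), Cdhr1 (0.630) and Omp (0.797) among 21838 genes. These were the genes well above background on the 4 arrays where Eomes was. The distance itself covered all 6 arrays, with the cortex values of Eomes that were not well above background. S100a5 and Omp are genes of olfactory sensory neurons, whose axons end in the bulb, and Cdhr1 is a cadherin of mitral and tufted cells and photoreceptors. The mitral and tufted cell genes Tbx21, Shisa3 and Ms4a15 were not well above background in the hippocampus, and so were not among the candidates. Sox4 was closest to Rasa4, Lancl3 and Prdm1 (0.0810 to 0.0815), and Cd24a to Mgst1 (0.0722) and Trim67 (0.106). The nearest genes were Acbd7 (0.261) for Igfbpl1, C77080 (0.0908) for Tbr1, Rps4l (0.0489) for Neurod1, Tcn2 (0.0428) for Sox11 and Rmdn1 (0.0244) for Tubb3. The arrays are 3 regions by 2 treatments of the same study and not independent samples, so these distances are descriptions.

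Markers of bulb interneurons moved with Dcx, Sox4, Cd24a and Igfbpl1 across regions. In PAMAM arrays 19 of 19 measured interneuron genes were higher in bulb than in hippocampus, 17 of them at least 2-fold, with a median of 3.15 against -0.08 over all genes. Saline arrays gave 18 of 18, 17 at least 2-fold, and 3.48. Against cortex 18 of 18 were higher under both treatments, with medians of 3.12 (PAMAM) and 2.99 (saline). The largest bulb over hippocampus differences were those of Trh (6.80 and 6.21), Sp8 (6.05 and 6.32), Th (4.94 and 5.25), Pbx3 (4.46 and 4.51), Calb2 (4.24 and 4.41) and Meis2 (3.84 and 3.71).

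Mitral and tufted cell genes were uneven. Cdhr1 was higher in bulb than in hippocampus by 6.18 (PAMAM) and 6.21 (saline), Doc2g by 6.17 and 6.25, Nmb by 3.43 and 3.58 and Reln by 2.28 and 1.85. Tbx21, Shisa3 and Ms4a15 were well above background on the bulb arrays and on none of the other 4. Slc17a7, the vesicular glutamate transporter that cortical and hippocampal neurons also carry, was lower in the bulb (-1.09 and -1.10), as was Cck (-1.48 and -1.45). Of the list, 6 of 9 measured genes were higher under PAMAM (median 1.33) and 5 of 8 under saline (1.36), and Barhl2 was not measured. With normexp background correction these medians were 0.346 and 0.951.

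Other genes of immature neurons were mixed and did not share the bulb difference as a set. The part of mature neurons in their values was not tested. Of 23 measured, 8 were higher and 15 lower in bulb than in hippocampus under PAMAM (median -0.36), and 10 higher and 13 lower under saline (-0.35), medians that were -0.18 and -0.20 with quantile normalization. Nrep (1.16 and 0.84) and Dpysl3 (1.03 and 0.75) were among the higher ones, and Bhlhe22 (-4.97 and -4.38), Ccnd2 (-1.56 and -1.83), Plxna4 (-1.64 and -1.78) and Stmn2 (-1.27 and -1.28) among the lower. Against cortex 11 of 23 were higher under both treatments, with medians of -0.24 and -0.44, which became positive with the median over all probes of a gene (0.03 and 0.23). Pan-neuronal genes, mostly of mature neurons, were lower in bulb than in hippocampus in 9 of 10 genes under both treatments (medians -0.50 and -0.44, and -0.28 and -0.20 with quantile normalization).

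**Figure D3:**
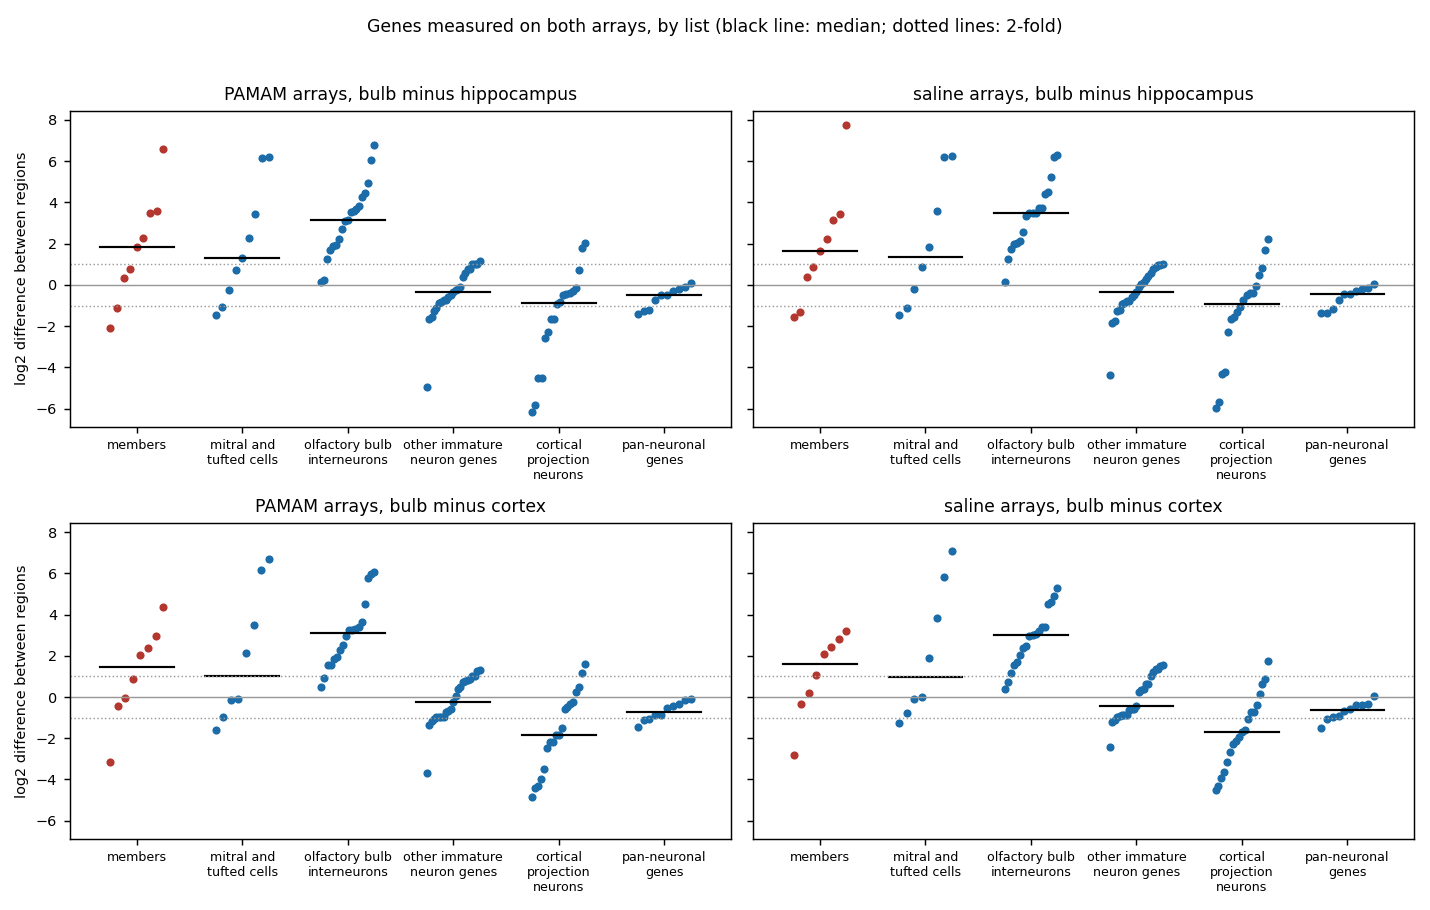
Log2 differences of bulb over hippocampus (top) and bulb over cortex (bottom) in PAMAM arrays (left) and saline arrays (right), one dot per gene measured on both arrays, for the 9 genes and 5 marker lists, with the median as a black line. All measured interneuron genes lie above 0, whereas other immature neuron genes lie on both sides of 0.

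Progenitor genes differed by gene. Fabp7, a lipid-binding protein of radial glia and of ensheathing cells, was higher in bulb than in hippocampus by 4.24 (PAMAM) and 4.18 (saline), Pax6 by 3.15 and 3.34 and Hes5 by 1.64 and 1.77, while Thbs4 was lower (-4.22 and -4.46). Of 13 measured genes 7 and 6 were higher, with medians of 0.15 (PAMAM) and -0.00412 (saline), the saline one changing sign between settings. Of 14 genes of dividing cells 8 were measured, 3 (PAMAM) and 4 (saline) of them higher in bulb, with medians of -0.07 and 0.02. Mki67 differed by -0.06 and 0.09, and Top2a, Cdk1 and Aurkb were not measured in these comparisons.

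Most genes of cortical projection neurons ran with Tbr1 between the bulb and the other regions. Under PAMAM 15 of 18 measured genes were lower in bulb than in hippocampus (median -0.88) and 15 of 19 lower than in cortex (-1.83). Under saline the counts were 14 of 18 (-0.91, and -0.53 with normexp) and 15 of 19 (-1.69). The log2 difference of bulb minus hippocampus was -6.17 (PAMAM) and -5.96 (saline) for Neurod6, -4.51 and -4.24 for Neurod2, and -4.53 and -4.31 for Fezf2. Nxph4 (2.01 and 2.21) and Ctgf (1.78 and 1.68) were at least 2-fold higher in the bulb than in the hippocampus. Between hippocampus and cortex 12 of 19 genes were lower in the hippocampus under both treatments (medians -0.40 and -0.46), as Tbr1 was. Unlike Tbr1, Neurod6, Neurod2 and Fezf2 were higher in hippocampus than in cortex. The differences were 1.32 and 1.66 for Neurod6, 1.02 and 1.08 for Neurod2, and 0.56 and 0.69 for Fezf2.

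Genes of dentate granule cells were the ones set beside Neurod1. Of 7 measured under PAMAM 5 were lower in bulb than in hippocampus (median -3.09, and -1.62 with normexp), and of 6 under saline 4 were lower (-2.28). Between hippocampus and cortex, 6 of 9 (PAMAM, median 0.67) and 6 of 8 (saline, 0.79) were higher in hippocampus, with Lct (3.51 and 4.36) and C1ql2 (1.45 and 1.53) among them. Neurod1 itself was higher in hippocampus than in cortex by 0.67 (PAMAM) and 0.99 (saline, just under 2-fold).

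In the olfactory bulb the PAMAM and saline arrays had similar levels of the 9 genes. No gene reached 2-fold (0 of 9), where 0.258% of 23288 measured genes did in either direction, 0.0515% higher and 0.206% lower under PAMAM. The 9 differences, PAMAM minus saline, had a median of 0.02 and ranged from -0.35 to 0.20, against a median of -0.01 over all genes. Tbr1 was the lowest, at 1.53 under PAMAM against 1.88 under saline (spot noise 0.08), and its probe 2 gave -0.63 (spot noise 0.30). Igfbpl1 was the highest, at 0.81 against 0.61 (spot noise 0.08), and these 2 were the genes past 2 spot-noise SDs on the brightest probe. A difference as large as that of Tbr1 was seen in 7.92% of measured genes. Beside Tbr1, genes of cortical projection neurons were higher under PAMAM in 9 and lower in 10 of 19 measured in the bulb (median -0.00356, and 0.00792 with quantile normalization). They ran from Neurod6 at -0.40 to Nfe2l3 at 0.24, with Neurod2 at -0.33 and Fezf2 at -0.24. Other immature neuron genes were higher in 10 and lower in 13 of 23 (-0.00972), from Bhlhe22 at -0.66 to Elavl2 at 0.21. Mitral and tufted cell genes were higher in 4 and lower in 8 of 12 (-0.03), from Ebf1 at -0.45 to Lhx5 at 0.25. The part of these cells in the Tbr1 difference was not tested.

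In the hippocampus 1 of 9 genes reached 2-fold, Eomes, higher under PAMAM. The share of genes that did was 0.649% of 22326 in either direction, 0.582% higher and 0.0672% lower. The Eomes probe read 59 under PAMAM against 30.3 under saline in background-corrected signal before scaling by array. The levels, which are scaled by the array percentiles (547 and 640.5), were -3.21 against -4.40. This is a difference of 1.19 (2.28-fold) with spot noise of 0.30. Both levels lie near the lowest one that counted as well above background (-4.56 on the PAMAM array and -5.05 on the saline array). The difference was 0.56 with the other background correction and 0.83 as the median of both probes, both under 2-fold. The other correction (normexp) adds an offset of 50 to the signal. This narrows any difference between signals this low, so its value cannot decide whether the call holds. Probe 2 was not above background on either array, so the median of both probes cannot decide it either. The 2-fold call rests on probe 1 alone.

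The other 8 genes differed by -0.30 (Neurod1) to 0.19 (Tbr1), and the median of all 9 was -0.02, against 0.00420 over all genes. Neurod1 had -1.40 under PAMAM against -1.10 under saline (spot noise 0.13) on probe 1, and 0.16 higher under PAMAM on probe 2. Dcx differed by -0.14 (spot noise 0.11) on probe 1 and 0.30 (0.22) on probe 2. Neither gene had the same direction on both probes.

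Several marker lists moved beside Eomes in the hippocampus, and their part in its difference was not tested. Choroid plexus genes were higher under PAMAM in 13 of 13 (median 0.82, summed level 281 against 173), thalamic genes in 6 of 7 (median 0.70, sum 8.30 against 5.15) and red blood cell genes in 6 of 6 (median 0.53, sum 69.7 against 49.2). Ttr was by far the brightest gene in the choroid plexus sum (level 7.95 against 7.27). T and NK cells also use Eomes: of 12 such genes 4 were measured, and all 4 were higher under PAMAM (median 0.14, and 0.07 with array medians, sum 4.11 against 3.56). These were Cd3e (0.41), Prf1 (0.23), Gzma (0.04) and Nkg7 (0.00511). The rest of that list, among them Cd3d, Cd3g, Cd8a and Ncr1, were not above background on either hippocampus array. Of Cajal-Retzius genes 3 of 9 were higher (median -0.04, and 0.02 with normexp, sum 4.65 against 4.12), with Ebf3 at 0.90 and Reln at -0.53. Mitral and tufted genes were higher in 3 of 8 (median -0.03, sum 177 against 181), and Tbx21 (in both that list and the T and NK cell list), Shisa3 and Ms4a15 were not above background on either hippocampus array. Cck was by far the brightest gene in the mitral and tufted sum (level 7.38 against 7.41).

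In the cortex 0 of 8 measured genes reached 2-fold, where 0.768% of 21601 genes did, 0.352% higher and 0.417% lower (45.8% of the calls higher, and 59.9%, 63.3% and 61% with quantile, array-median and normexp settings). The median of the 8 was 0.06, against 0.02 over all genes, and 5 were higher and 3 lower. Igfbpl1 came closest, at -3.54 under PAMAM against -2.57 under saline, a difference of -0.97 with spot noise of 0.27. In background-corrected signal, before scaling by the array percentiles (452 and 542), Igfbpl1 read 38.8 against 91.0. The fold after scaling was 1.96, and 0.847% of measured genes differed by as much. With the other background correction the difference was -0.41, but its offset of 50 narrows any difference between signals this low. Igfbpl1 has a single probe, so no other probe can be set beside this value.

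Dcx, the gene nearest to Igfbpl1 among the members, differed in the cortex by -0.11 on probe 1 (spot noise 0.09) and by -0.62 on probe 2 (spot noise 0.24). Sox11 was 0.20 higher under PAMAM on probe 1 (spot noise 0.10) and 0.74 higher on probe 2 (0.12), the levels of probe 2 being -0.55 against -1.29. Neurod1 differed by 0.02 on probe 1 and 0.42 on probe 2, and Tbr1 by -0.05 and -0.35. Sox4 (0.09), Cd24a (0.13) and Tubb3 (0.19) were slightly higher under PAMAM. Eomes was not above background on its brightest probe on either cortex array, with background-corrected signals of 20.5 (PAMAM) and 17.3 (saline). Probe 2 was above background under saline alone, so that PAMAM was at least 2.30-fold lower on that probe. It read 4.74 under PAMAM and 53.6 under saline in cortex, and 5.74 and 4.86 in hippocampus. Probe 2 was the dimmer probe in the bulb and the brighter one on the saline cortex array. The fold thus rests on 1 probe on 1 array, and the brightest probe did not share its direction.

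Beside Igfbpl1 in the cortex, 13 of 18 measured bulb interneuron genes were lower under PAMAM (median -0.14, summed level 72.5 against 74.3), with Calb2 (-1.06), Trh (-1.04), Dlx6 (-1.01) and Sp8 (-0.83) the lowest. That median was -0.03 with normexp and with array medians. Other immature neuron genes were higher in 18 of 23 (median 0.15, and 0.07 to 0.26 over the alternatives), with Marcksl1 at 0.69 and Nrep at -0.39. Meningeal genes were higher in 11 of 11 (median 0.89, sum 17.8 against 9.22), choroid plexus genes in 8 of 9 (median 1.22, and 0.543 with normexp, sum 24.5 against 5.25) and red blood cell genes in 4 of 5 (median 0.49, sum 75.3 against 50.1). Ttr was the brightest gene in the choroid plexus sum (level 4.38 against 1.66). The part of these lists in the values of the members was not tested.

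**Figure D4:**
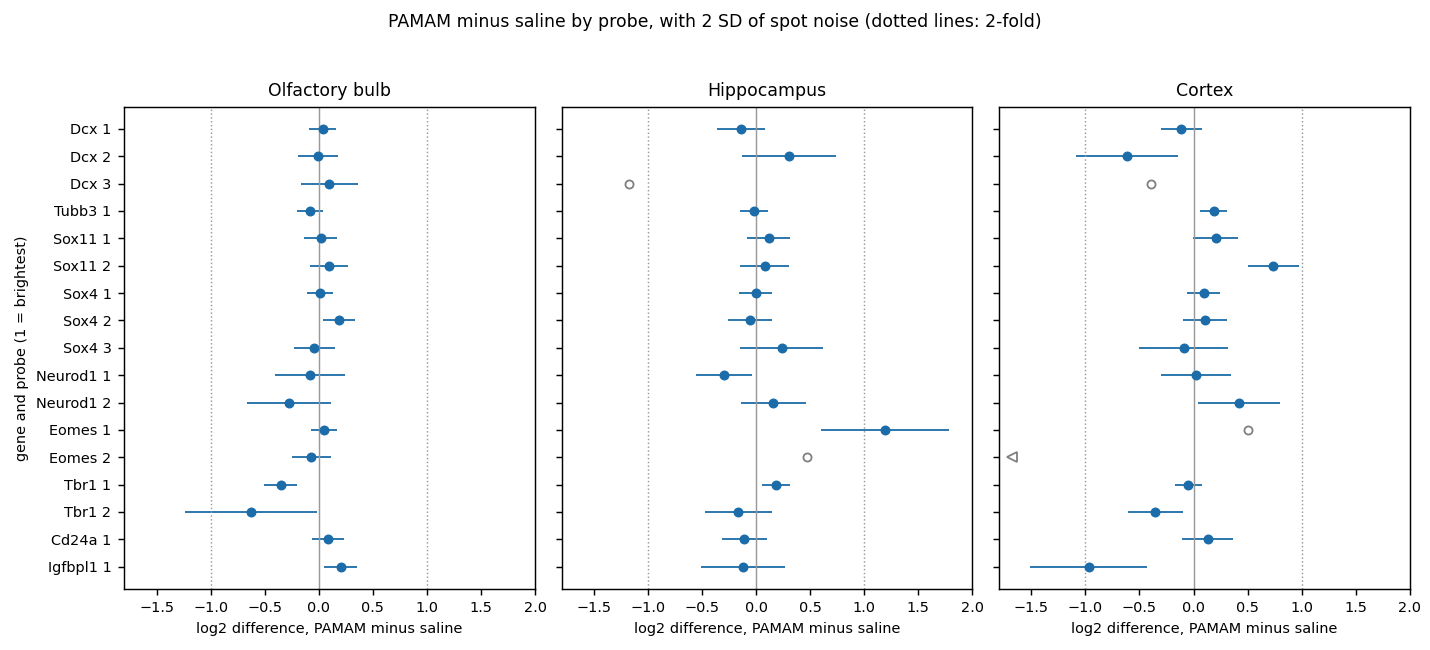
Log2 difference, PAMAM minus saline, for each of the 17 probes in bulb, hippocampus and cortex, with bars of 2 SD of spot noise; open circles are probes that missed the background limit on at least 1 array, and the triangle at the left edge of the cortex panel is the second Eomes probe, off the axis. Among filled points the widest departures are Eomes (1.19) in the hippocampus and Igfbpl1 (-0.97) in the cortex.

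Of the genes measured in all 3 regions, all but Sox11 had treatment differences of both signs on the brightest probe. Some of these differences were smaller than the spot noise. Igfbpl1 was 0.20 higher under PAMAM in the bulb, with -0.12 in the hippocampus and -0.97 in the cortex. Tbr1 had -0.35, 0.19 and -0.05 in that order, and Sox11 had 0.02, 0.12 and 0.20. The difference between regions in these treatment values was not tested, since each rests on 1 pair of arrays.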

How the data were processed

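The authors deposited one scanner file per array, with linear spot intensity from design 028005 read by Agilent Feature Extraction 10.7.3.1, per the file headers. One slide and one scan hold the 6 arrays, and the hippocampus pair lies in different slide rows. A further deposited table holds log2 values. Its column medians, PAMAM and saline, were -0.0626 and -0.0914 (bulb), 0.0254 and -0.0462 (hippocampus) and 0.0349 and 0.0436 (cortex). It correlated with the scanner values after the same percentile scaling and centring by probe (r from 0.99994 to 0.99998 over 55234 probes), which settles its scale, centring and direction, while its handling of repeated spots stays unknown.

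Processed signals were taken to log2 and the array's 75th percentile subtracted. Those percentiles were 710 and 679 (bulb, PAMAM and saline), 547 and 640.5 (hippocampus) and 452 and 542 (cortex). Outlier-marked spots were left out (15 probes lost) and repeated spots averaged. Symbols were updated through RefSeq for 27235 probes, of which 2838 changed. Spot noise came from 399 probes spotted 10 times, as the median over the 40 nearest in level. Each comparison is the difference of 2 arrays, with no test, and the number of arrays limits its precision. Alternatives were normexp background correction (offset 50, limma 3.58.1 in R 4.3.3), quantile or median scaling, the median over all probes, the deposited table, and other filters on dim probes. Calls were tested on simulated data. Python 3.11.15, numpy 2.4.6 and pandas 2.3.3 did the rest.

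The members and the 19 marker lists (241 entries, 240 on the array) were chosen with earlier results of these data known. Named were all members, the 3 genes nearest each by profile where they have a gene name (for some members only the nearest is given), and list genes at least 2-fold different or, in 4 lists, up to 6 examples with large differences. Some list genes with smaller differences are named beside them and were chosen after their values were seen.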

Additional observations from a re-analysis of the deposited data

How the results depend on the processing

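No paired analysis was possible because each group has 1 array and its replicate number comes from accession order alone. In the hippocampus 1 of the 9 genes differed by 2-fold between PAMAM and saline, and 0 did with normexp background correction, with the median over all probes and with brighter genes only. Hippocampus minus cortex gave 1 gene in PAMAM arrays, 0 with normexp, quantile normalization or the median over all probes, and 2 with no filter on dim probes. In saline arrays it gave 1 gene, and 2 with quantile normalization, with array medians and with the deposited table, the added gene being Neurod1 (0.99 against 1.01, 1.02 and 1.01). With 0 of 9 genes in the bulb, 0 of 8 in the cortex and the bulb against the other regions, the 2-fold counts stayed within 1.5 times in every setting run. Of 130 alternative values of treatment differences 6 changed sign and 2 changed side of the 2-fold threshold, and of 250 values of region differences 6 and 10 did. Dcx in the hippocampus was -0.14 on its brightest probe and 0.30 over all probes.

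Counts over all genes moved more, and were highest in each comparison with no filter on dim probes. For PAMAM minus saline they were 60 (22 to 1692) in the bulb, 145 (32 to 1953) in the hippocampus and 166 (34 to 2054) in the cortex. Bulb minus hippocampus gave 2609 (1764 to 5404) in PAMAM and 2573 (1723 to 5120) in saline arrays, bulb minus cortex 2626 (1780 to 5550) and 2499 (1688 to 5177), and hippocampus minus cortex 779 (398 to 3156) and 999 (549 to 3025). Of the 2-fold genes between PAMAM and saline in the cortex 45.8% were higher, against 59.9% with quantile normalization, 63.3% with array medians and 61% with normexp. For bulb minus cortex in PAMAM arrays the share was 39.8%, against 26.4% with array medians, and for hippocampus minus cortex 54.6% against 38.2%. Array medians moved the median of all genes by over 0.1 in several comparisons, for example to 0.12 (cortex, PAMAM minus saline) and -0.26 (bulb minus cortex, PAMAM). Signals near background limit what can be said of Eomes outside the bulb and of Igfbpl1 in the cortex.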

Other observations

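Genes of other cell types also differed by region. Oligodendrocyte genes such as those of myelin were lower in the bulb than in the hippocampus in 9 of 10 (medians of -1.21 in PAMAM and -0.99 in saline arrays). Genes of hippocampal pyramidal cells were lower in the bulb than in the hippocampus in 8 of 8 under both treatments (-1.96 and -2.10). Of the meningeal genes 11 of 11 were higher in the bulb than in the cortex under both treatments, with medians of 1.09 (PAMAM) and 1.91 (saline).

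Under PAMAM compared with saline, microglial genes were higher in 7 of 10 in the bulb (median 0.10), 7 of 10 in the hippocampus (0.07) and 8 of 9 in the cortex (0.16), with 0 at 2-fold. The medians of hippocampus and cortex were as low as 0.00437 (array medians) and 0.03 (median over all probes). Striatal genes had medians of -0.16, 0.13 and -0.03 in that order, of which that of the hippocampus was -0.02 over all probes and that of the cortex 0.08 with array medians.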
